A study of Mus musculus with 24 samples.

Results

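Protamines and transition proteins are the small basic proteins that pack the DNA of sperm, and 5 genes of this kind were measured: the protamine genes Prm1, Prm2 and Prm3 and the transition protein genes Tnp1 and Tnp2. They were chosen by name, and all 5 were found among the 55364 genes of the round spermatid tables and the 55401 genes of the CB tables. The RNA came from testis cells of knock-in mice whose altered gene, Ddx4, encodes an RNA helicase of the granules of germ cells, and 12 of the 24 libraries of the series were used here. Round spermatid (RS) RNA was sequenced from homozygous knock-in, heterozygous knock-in and wild-type testes, with 2 libraries each. RNA labelled CB, an abbreviation that the labels do not spell out and whose cell type they give as germ cells, was sequenced from homozygous and heterozygous knock-in testes, with 3 libraries each. No library of the series was of wild-type CB RNA. Cells of every group were released from the testis by enzymatic digestion. The NEBNext Ultra kit and 1 ug of total RNA served for the RS libraries. A strand-specific Hieff kit and 25 ng of RNA served for the CB libraries, in which neither were polyadenylated molecules selected nor ribosomal ones removed. The labels used here give no age, strain, design of the knock-in allele or number of animals behind a library. The p-values below therefore measure the spread between libraries, which may be technical.

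In the haploid spermatids that follow meiosis, histones are first exchanged for transition proteins and then for protamines. Prm1 and Prm2 encode the arginine-rich proteins of the final sperm nucleus, the Prm2 product being made as a precursor that is trimmed. Tnp1 and Tnp2 encode the proteins that occupy the DNA in between. Prm3 lies in the same gene cluster but encodes an acidic protein that has been described as cytoplasmic. The genes are transcribed in round spermatids, and their mRNAs are known to be stored without translation until the nucleus condenses. CREM, an activator of haploid genes, is known to bind variants of the cAMP response element in several of these promoters.

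Prm1, Prm2, Prm3 and Tnp2 lay within 8889 bases of chromosome 16 (10787935 to 10796823 in GRCm38.p6), all on the minus strand, and Tnp1 lay on chromosome 1 (73015074 to 73015899), also on the minus strand. The promoters are shown so that the start regions of the 4 neighbours and of Tnp1 can be compared with the values below. Each line gives the 150 bases before the RefSeq start on the gene's own strand (RefSeq, GRCm38.p6), with matches to TGANNTCA, TATAA and TATATA in capitals.
Prm1, chr16:10796824-10796973: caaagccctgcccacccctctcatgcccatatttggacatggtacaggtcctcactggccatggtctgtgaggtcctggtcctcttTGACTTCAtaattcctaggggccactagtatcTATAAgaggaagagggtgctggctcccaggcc
Prm2, chr16:10792106-10792255: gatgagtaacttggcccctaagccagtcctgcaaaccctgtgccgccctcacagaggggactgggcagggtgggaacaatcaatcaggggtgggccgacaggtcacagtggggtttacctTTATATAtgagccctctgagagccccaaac
Prm3, chr16:10790915-10791064: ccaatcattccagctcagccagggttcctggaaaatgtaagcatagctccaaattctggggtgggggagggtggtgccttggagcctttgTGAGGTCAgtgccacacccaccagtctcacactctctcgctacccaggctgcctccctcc
Tnp2, chr16:10788656-10788805: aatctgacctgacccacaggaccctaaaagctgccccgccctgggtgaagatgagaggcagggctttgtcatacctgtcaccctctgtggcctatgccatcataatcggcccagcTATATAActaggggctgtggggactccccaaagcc
Tnp1, chr1:73015900-73016049: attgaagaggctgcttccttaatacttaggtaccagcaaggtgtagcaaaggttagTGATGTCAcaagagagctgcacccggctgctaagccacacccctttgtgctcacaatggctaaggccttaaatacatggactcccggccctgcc

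The full cAMP response element TGACGTCA, searched on both strands, was in none of the 5 windows and in 1.36% of 32851 RefSeq promoters over the same 150 bases. TGANNTCA, which reads the same on both strands and includes that element, was in the windows of Prm1 (TGACTTCA, 64 to 57 bases before the start), Prm3 (TGAGGTCA, 60 to 53 bases) and Tnp1 (TGATGTCA, 94 to 87 bases), and in 8.37% of all promoters. TATAA, searched on both strands, was in the windows of Prm1, Prm2 and Tnp2 and in 14.2% of all promoters. TATATA was in those of Prm2 and Tnp2, where it overlaps the TATAA match, and in 2.97% of all promoters. The motifs were chosen with these sequences in view, and a match is a description of the letters.

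Before the results, 2 libraries have to be named. RS libraries held 15.3 to 24.9 M counts and CB libraries 14.2 to 16.5 M. Wild-type RS library 1 stood apart: the mean fragment length implied by its table was 259 bases against 315 to 320 bases in the other 5 RS libraries, and 20.2% of its counts lay on transcripts shorter than 1000 bases, against 11.2% to 12.7% in those 5. Heterozygous CB library 1 also differed from libraries 2 and 3 of its group, with a chi-square per degree of freedom of 28.6 and 28.5 over genes, against 5.27 between libraries 2 and 3. The results below are given with and without them. Ddx4 itself had 121 and 130 CPM (counts scaled to the TMM library size of the same kind of library) in homozygous, 406 and 403 in heterozygous and 443 and 521 in wild-type RS libraries. In CB libraries Ddx4 had 303, 306 and 244 CPM in homozygous and 278, 312 and 365 CPM in heterozygous samples. All 8 round spermatid markers were present in every RS library, with levels in TPM (the deposited transcript level, which corrects for transcript length). They summed to 1958 to 1978 TPM in homozygous, 2372 to 2383 TPM in heterozygous and 2120 to 2319 TPM in wild-type RS libraries. The 6 condensing spermatid markers summed to 11570 to 11780 TPM in homozygous, 13620 to 14340 TPM in heterozygous and 11250 to 14000 TPM in wild-type ones. The 7 Sertoli markers summed to 18.1 to 18.9 TPM in homozygous, 32.1 to 32.5 TPM in heterozygous and 32.3 to 34.3 TPM in wild-type RS libraries. Of these 7, Sox9, Amh and Rhox5 were listed at 0 in at least 1 RS library, and Clu, Aard, Cldn11 and Wt1 were above 0 in all. The 5 Leydig markers summed to 52.6 to 53.8 TPM in homozygous, 26.0 to 28.5 TPM in heterozygous and 14.3 to 15.8 TPM in wild-type RS libraries. The 5 immune markers summed to 20.9 to 21.2 TPM in homozygous, 14.7 to 20.4 TPM in heterozygous and 5.07 to 7.01 TPM in wild-type ones. Of the 8 pachytene spermatocyte markers, Tex101 had 792 to 825 TPM in homozygous, 42.0 to 43.2 TPM in heterozygous and 39.4 to 40.5 TPM in wild-type RS libraries. The other 7 summed to 413 to 418 TPM in homozygous, 394 to 409 TPM in heterozygous and 429 to 433 TPM in wild-type ones, and so lay close together. The part of these cells in the results below was not tested.

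All but Prm3 were among the most abundant genes of the round spermatid per transcript length. On the TPM scale, Tnp2, Prm2 and Prm1 held the first 3 ranks of all genes in every RS library, Tnp1 held rank 5 to 19 and Prm3 rank 642 to 2108. On the CPM scale, without the correction for length, Tnp2 held rank 3 to 11, Prm2 rank 4 to 7, Prm1 rank 41 to 61 (rank 1 in wild-type library 1), Tnp1 rank 46 to 827 and Prm3 rank 3737 to 8830. The 5 genes together took 3.87% to 4.36% of all TPM in 5 RS libraries and 6.78% in wild-type library 1. In CB libraries they took 0.450% to 0.835%. Fewer cells of a type and less RNA per cell cannot be told apart in such samples, and kit and input differ between the 2 kinds of library, so RS and CB levels were not tested against each other.

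On the TPM scale, the order of the levels was the same in both knock-in genotypes of RS cells. In homozygous RS libraries Tnp2 averaged 17210 ± 316 TPM, Prm2 12500 ± 50.03, Prm1 9897 ± 485, Tnp1 3657 ± 85.0 and Prm3 101 ± 6.57 TPM (SD, n = 2), and no neighbours in this order overlapped. In heterozygous RS libraries Tnp2 averaged 13100 ± 231 TPM, Prm2 12270 ± 21.4, Prm1 10580 ± 1236, Tnp1 3610 ± 394 and Prm3 145 ± 2.68 TPM (SD, n = 2), again without overlap between neighbours. In wild-type RS cells the order held in library 2 (15060, 11910, 9982, 2826 and 134 TPM) but not in library 1, where Prm1 had 29240 TPM, Tnp2 17450, Prm2 12770, Tnp1 8042 and Prm3 322 TPM. CB libraries gave another order, with Prm2 in the first place and Tnp2 or Prm1 in the next. Homozygous CB libraries averaged 2051 ± 91.7 TPM of Prm2, 1090 ± 66.0 of Tnp2, 817 ± 54.6 of Prm1, 629 ± 77.0 of Tnp1 and 116 ± 9.28 of Prm3 (SD, n = 3). Heterozygous CB libraries averaged 2722 ± 403 TPM of Prm2, 1713 ± 532 of Prm1, 1208 ± 327 of Tnp2, 867 ± 237 of Tnp1 and 134 ± 8.98 of Prm3 (SD, n = 3). Within the heterozygous CB group the ranges of Prm1 and Tnp2 and those of Tnp2 and Tnp1 overlapped. Each single library there kept the order of the means. In CPM, the order in RS cells differed between the knock-in genotypes. Tnp2 lay above Prm2 in homozygous RS libraries (3382 and 3419 against 3206 and 3137 CPM). It lay below Prm2 in heterozygous ones (2577 and 2598 against 3067 and 3151 CPM).

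**Figure D1:**
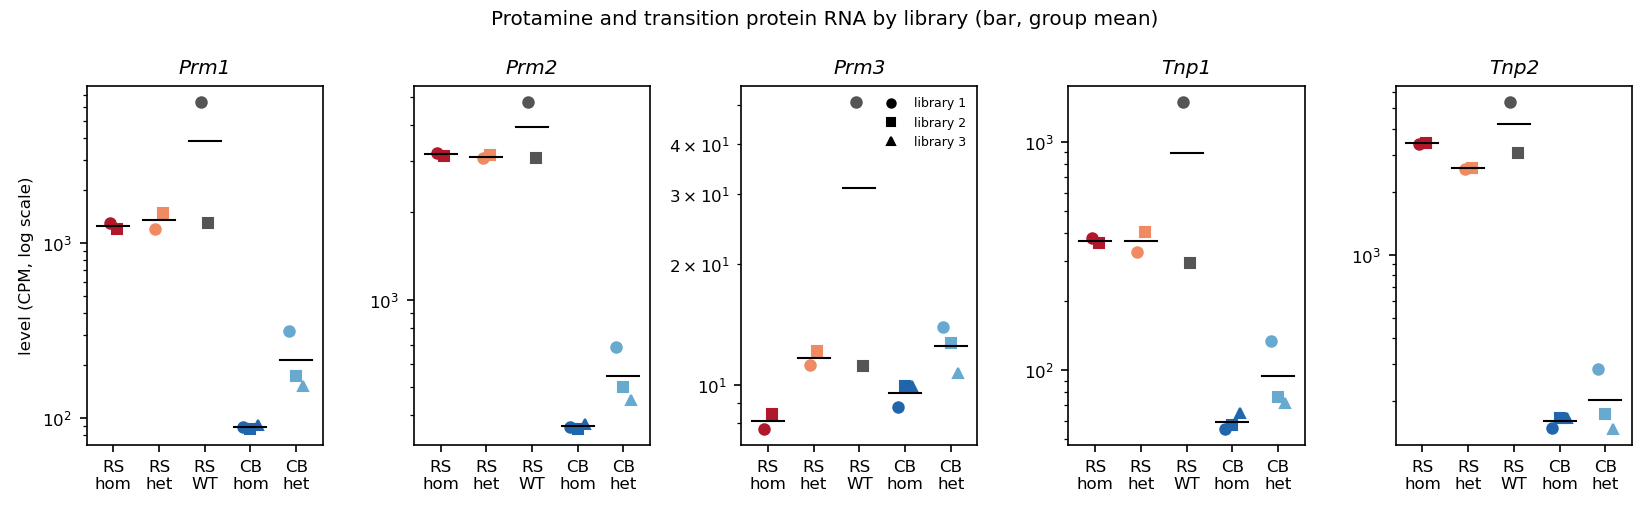
Level of each gene in every library in CPM on a log axis, with homozygous (hom), heterozygous (het) and wild-type (WT) groups and a bar at the group mean. Wild-type RS library 1 lies above the other RS libraries for all 5 genes, and heterozygous CB library 1 above the other CB libraries.

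Prm1, the protamine found in all mammals, had 1309 and 1207 CPM in homozygous, 1212 and 1491 CPM in heterozygous and 6381 and 1307 CPM in wild-type RS libraries. The homozygous and heterozygous values overlapped, and so did the lower wild-type one, whereas wild-type library 1 was far above all others. In CB RNA Prm1 had 88.5, 87.0 and 91.2 CPM in homozygous and 314, 175 and 153 CPM in heterozygous libraries. Here the groups did not overlap, and the 3 homozygous values lay close together.

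Prm2 had 3206 and 3137 CPM in homozygous, 3067 and 3151 CPM in heterozygous and 4790 and 3087 CPM in wild-type RS libraries. Leaving wild-type library 1 aside, the 5 RS values lay within 3067 to 3206 CPM. In CB RNA Prm2 had 364, 359 and 374 CPM in homozygous and 688, 501 and 450 CPM in heterozygous libraries, again without overlap.

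Prm3 was the lowest of the genes. It had 7.76 and 8.44 CPM in homozygous, 11.2 and 12.1 CPM in heterozygous and 50.8 and 11.1 CPM in wild-type RS libraries, so both homozygous libraries lay below the other 4. These levels rest on 151 to 932 counts per RS library. The share of all genes with both homozygous libraries below the other 4 was not counted, but 32.0% had both below both heterozygous ones. In CB RNA Prm3 had 8.80, 9.90 and 9.90 CPM in homozygous and 13.97, 12.7 and 10.7 CPM in heterozygous libraries, and the groups did not overlap.

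Tnp1, whose product is the more abundant transition protein of mouse spermatids, had 378 and 362 CPM in homozygous, 331 and 405 CPM in heterozygous and 1491 and 296 CPM in wild-type RS libraries. Homozygous and heterozygous values overlapped. In CB RNA Tnp1 had 55.4, 57.6 and 64.9 CPM in homozygous and 135, 75.9 and 71.5 CPM in heterozygous libraries, without overlap but with heterozygous libraries 2 and 3 close to the homozygous values.

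Tnp2, the other transition protein gene, had 3382 and 3419 CPM in homozygous, 2577 and 2598 CPM in heterozygous and 5336 and 3049 CPM in wild-type RS libraries, so that both homozygous libraries lay above both heterozygous ones. In CB RNA Tnp2 had 150, 167 and 166 CPM in homozygous and 285, 175 and 148 CPM in heterozygous libraries, and the groups overlapped.

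Homozygous against wild-type RS cells asks how the genes differ where both Ddx4 alleles carry the knock-in. With all 6 RS libraries in the edgeR fit, none of the 5 genes passed an adjusted p of 0.05, where 2.39% of the 17810 genes tested were called higher and 0.472% lower. Prm1 (log2 change -1.61, SE 0.645, adjusted p = 0.210) and Prm3 (log2 change -1.93, SE 0.644, adjusted p = 0.161) had the greatest differences and an unadjusted p under 0.05. Tnp1 had a log2 change of -1.27 (SE 0.652, adjusted p = 0.297), Prm2 of -0.31 (SE 0.195, adjusted p = 0.379) and Tnp2 of -0.30 (SE 0.240, adjusted p = 0.486). DESeq2 called Prm3 lower (log2 change -1.95, adjusted p = 0.0106), beside 462 of 17810 genes. Without a filter on low counts, edgeR called Prm1, Prm3 and Tnp1 lower (adjusted p = 0.00773, 0.00432 and 0.0405), beside 720 of 29141 genes. The median log2 change of the 5 genes was -1.27, against -0.00053 over all genes tested.

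These values turned on wild-type library 1. Without it, Prm1 had a log2 change of -0.06 (SE 0.0778, adjusted p = 0.649) and Prm2 of 0.04 (SE 0.0383, adjusted p = 0.533). Prm3 fell by 0.46 (log2, SE 0.159, adjusted p = 0.0412), whereas Tnp1 rose by 0.32 (SE 0.0804, adjusted p = 0.00577) and Tnp2 by 0.16 (SE 0.0374, adjusted p = 0.00435). In that fit a single wild-type library stood for its group and was assumed to vary like the others, and calls were common: 13.4% of 18565 genes were higher and 13.1% lower. Without wild-type library 2, all 5 genes were called lower, from -0.58 for Prm2 to -2.64 for Prm3 (adjusted p from 2.5e-12 to 2.1e-09), where 21.0% of 18757 genes were called lower. Prm2, Tnp1 and Tnp2 thus changed sign with the wild-type library that was kept.

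How far wild-type library 1 stood apart differed with transcript length. Its log2(CPM + 1) minus the mean of the other 5 RS libraries was 2.29 for Prm1, 2.24 for Prm3 and 2.08 for Tnp1, whose transcripts are 469, 410 and 437 bases long. It was 0.61 for Prm2 (621 bases) and 0.84 for Tnp2 (554 bases). Over all genes with a mean of at least 10 CPM the median of the same difference was 2.36 for transcripts under 400 bases (13 genes), 1.60 from 400 to 500 bases (69 genes), 0.96 from 500 to 650 bases (235 genes) and -0.79 from 4000 bases on (1092 genes). Prm1, Prm3 and Tnp1 lay above the median of their length class and Prm2 and Tnp2 below that of theirs. Of the 304 genes of 400 to 650 bases, 10 exceeded Prm1 and 255 exceeded Prm2. When the trend with length was removed from the counts before the fit, Prm1 had a log2 change of -0.58, Tnp1 of -0.12, Prm2 of 0.10 and Tnp2 of 0.24 between homozygous and wild-type cells, none of them called. Prm3 was called lower (log2 change -0.70, SE 0.188, adjusted p = 0.0486), beside 1114 of 17810 genes. This call was lost with a replicate block added (adjusted p = 0.0589).

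**Figure D2:**
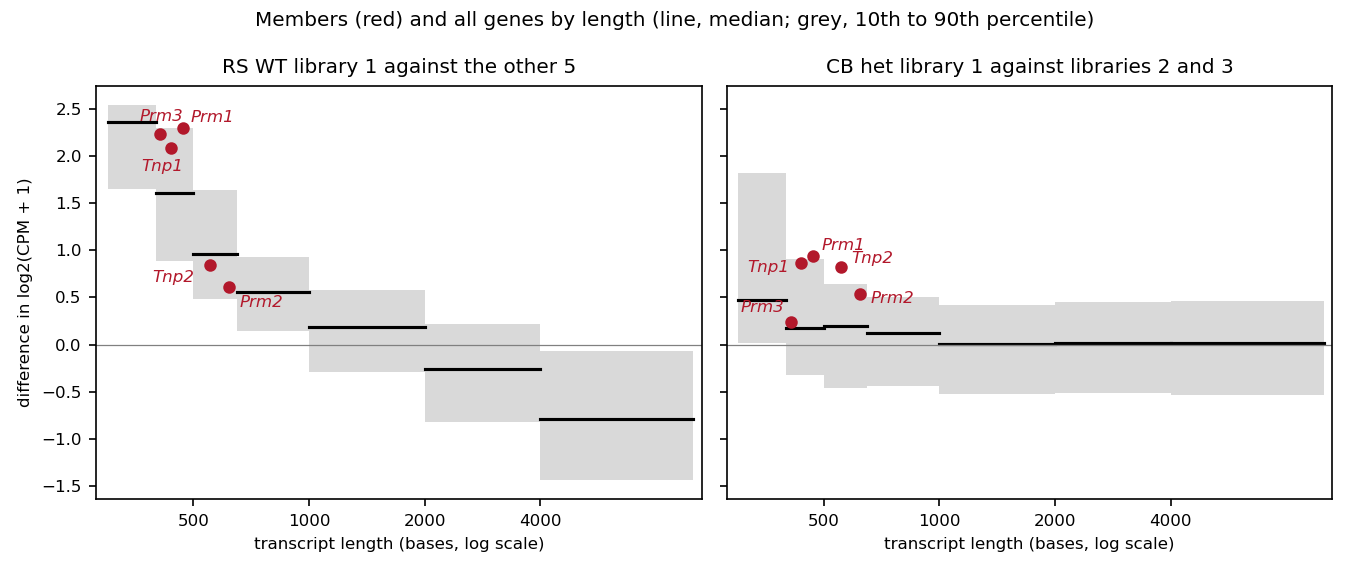
Difference of wild-type RS library 1 from the other 5 RS libraries (left) and of heterozygous CB library 1 from libraries 2 and 3 of its group (right), in log2(CPM + 1), against transcript length in bases on a log axis. Black lines are medians of all genes in a length class, grey boxes run from the 10th to the 90th percentile, and red points are the 5 genes; the all-gene median runs from 2.36 to -0.79 on the left and stays between 0.01 and 0.47 on the right.

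For homozygous against heterozygous RS cells the wild-type libraries entered only the estimate of spread. None of the 5 genes passed in the fit of all 6 libraries, none had an unadjusted p under 0.05 and DESeq2 called none, while 1.36% of all genes were called higher and 0.371% lower. Prm1 had a log2 change of -0.10 (SE 0.630, adjusted p = 0.958), Prm2 of 0.03 (SE 0.194, adjusted p = 0.963) and Tnp1 of 0.01 (SE 0.642, adjusted p = 0.997). For Prm3 the log2 change was -0.52 (SE 0.642, adjusted p = 0.755) and for Tnp2 it was 0.39 (SE 0.240, adjusted p = 0.481). With wild-type library 1 left out, the log2 changes stayed within 0.01 of these, but the SE of Prm1 was 0.0639 and that of Tnp2 0.0305. In that fit Tnp2 rose by 0.39 (adjusted p = 2.5e-08) and Prm3 fell by 0.52 (adjusted p = 0.00697), beside 15.5% of genes called higher and 14.6% lower. Prm1 (adjusted p = 0.2497), Prm2 (adjusted p = 0.551) and Tnp1 (adjusted p = 0.929) did not pass there. Without wild-type library 2, Tnp2 and Prm3 were called the same way (adjusted p = 8.0e-08 and 0.00452), beside 15.2% of genes called higher and 14.1% lower. They were called when only the homozygous and heterozygous libraries were fitted (adjusted p = 2.4e-07 and 0.00743), beside 2887 of 17295 genes called higher and 2689 lower. A single wild-type library adds no spread of its own. These fits thus drew their spread from the same homozygous and heterozygous libraries and are not separate checks. The calls did not hold with a homozygous or heterozygous RS library left out instead. The log2 changes were then 0.39 to 0.40 for Tnp2 and -0.58 to -0.46 for Prm3. Removing the length trend gave a call of Tnp2 alone (log2 change 0.40, adjusted p = 0.0414), beside 1058 of 17810 genes called higher. This call too was lost with a replicate block added (adjusted p = 0.0542). In samples, Tnp2 was the 1 gene of the 5 with both homozygous libraries above both heterozygous ones, an order seen in 32.6% of all genes. Prm3 was the 1 gene with both homozygous libraries below, an order seen in 32.0%.

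Heterozygous against wild-type round spermatids gave no call for any gene, 0.0% of the 17810 tested, with 1296 genes at an unadjusted p under 0.05 and 5 genes called by DESeq2, none of them one of the 5. The log2 changes were -1.51 for Prm1, -0.34 for Prm2, -1.40 for Prm3, -1.28 for Tnp1 and -0.70 for Tnp2, all with an adjusted p of 0.519. This comparison shares the wild-type libraries with that of homozygous cells. Without wild-type library 1, Tnp2 had a log2 change of -0.24 (SE 0.0369). A single wild-type library stood for its group in that fit, so the SE holds no spread between wild-type libraries. The other genes had log2 changes of 0.05 (Prm1), 0.01 (Prm2), 0.07 (Prm3) and 0.31 (Tnp1, adjusted p = 0.0890). Without wild-type library 2 all 5 were called lower, from -0.61 for Prm2 to -2.23 for Prm1, where 20.5% of all genes were called lower.

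**Figure D3:**
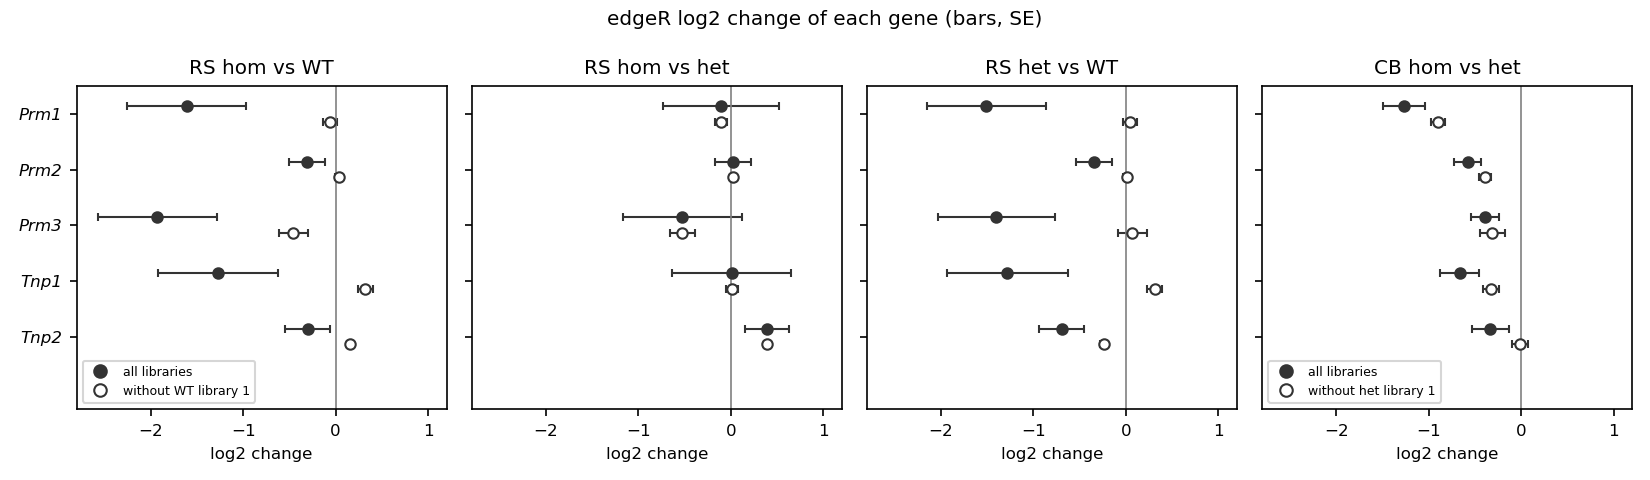
Log2 change of each gene in the edgeR fits (points) with its SE (bars), for RS homozygous (hom) against wild type (WT) and against heterozygous (het), RS heterozygous against wild type, and CB homozygous against heterozygous. Filled points use all libraries and open points leave out wild-type RS library 1 (first 3 panels) or heterozygous CB library 1 (last panel); Prm1 moves from -1.61 to -0.06 in the first panel and from -1.27 to -0.89 in the last.

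In CB RNA, Prm1 fell in homozygous against heterozygous knock-in samples, to 0.416 times the heterozygous level (log2 change -1.27, SE 0.226, edgeR adjusted p = 0.0216, lower in 3 of 3 libraries). It was the 1 gene of the 5 that passed, in a comparison where 0.559% of the 19335 genes tested were called lower and 1.16% higher. The other genes had negative values that did not pass. Tnp1 had a log2 change of -0.66 (SE 0.213, adjusted p = 0.171), Prm2 of -0.58 (SE 0.150, adjusted p = 0.0948), Prm3 of -0.39 (SE 0.150, adjusted p = 0.264) and Tnp2 of -0.33 (SE 0.203, adjusted p = 0.509). DESeq2 also called Prm2 (adjusted p = 0.0115) and Tnp1 (adjusted p = 0.0445), beside 230 of 19335 genes called lower. Without a filter, edgeR called those 3 too, beside 391 of 40225 genes called lower. The median log2 change of the 5 was -0.58, against -0.0048 over all genes. Every homozygous library lay below every heterozygous one for 4 of the 5 genes, all but Tnp2, which was so for 9.78% of all genes.

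Heterozygous CB library 1 had the highest level of all 5 genes. Its log2(CPM + 1) exceeded the mean of libraries 2 and 3 by 0.94 for Prm1, 0.86 for Tnp1, 0.82 for Tnp2, 0.53 for Prm2 and 0.24 for Prm3. The median over all genes of 400 to 500 bases was 0.18 (15 genes) and over those of 500 to 650 bases 0.20 (72 genes), and of the 87 genes of 400 to 650 bases 1 exceeded Prm1 and 2 exceeded Tnp1. Without that library, Prm1 fell by 0.89 (log2, SE 0.0754, adjusted p = 5.2e-05), Prm2 by 0.39 (SE 0.0666, adjusted p = 0.00388) and Tnp1 by 0.32 (SE 0.0887, adjusted p = 0.0394), beside 3.95% of 20033 genes called lower and 7.08% higher. Prm3 had a log2 change of -0.31 (adjusted p = 0.191) and Tnp2 of -0.01 (SE 0.0852, adjusted p = 0.940). The call of Prm1 was lost when any one homozygous CB library was left out (log2 change -1.25 to -1.28, adjusted p = 0.120 to 0.132). It held without heterozygous library 2 (adjusted p = 0.0361) and without library 3 (adjusted p = 0.0231), and with the length trend removed (log2 change -1.04, adjusted p = 0.0260).

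Sums of Leydig, peritubular and vascular, immune and condensing spermatid markers did not overlap between the CB genotypes. Those of Sertoli, spermatogonia, erythroid and round spermatid markers did. The 5 Leydig cell markers, all detected in every CB library, summed to 508 to 562 TPM in homozygous and 188 to 386 TPM in heterozygous CB libraries, mostly from Insl3. The 8 pachytene spermatocyte markers summed to 809 to 850 TPM in homozygous and 426 to 652 TPM in heterozygous libraries, but without Tex101 the other 7 overlapped, at 551 to 632 TPM in homozygous and 389.5 to 570 TPM in heterozygous ones. The 8 round spermatid markers summed to 440 to 476 TPM in homozygous and 398 to 527 TPM in heterozygous libraries and overlapped. The 6 condensing spermatid markers, among them Odf1, Oaz3, Gapdhs and Smcp, summed to 3024 to 3199 TPM in homozygous and 3252 to 5332 TPM in heterozygous libraries. In heterozygous library 1, the sums of all marker lists were the lowest of the group. Among them were Leydig (188 TPM), Sertoli (66.5 TPM), pachytene (426 TPM), round spermatid (398 TPM) and condensing spermatid markers (3252 TPM). The part of these cells in the change of Prm1 was not tested.

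Whether the genotype effect differed between CB and RS RNA was tested in a fit of all 12 libraries. No difference passed for the 5 genes, where 0.209% of 22002 genes were called in either direction, none of the 5 had an unadjusted p under 0.05 and DESeq2 called none. The difference of the log2 changes, CB minus RS, was -1.11 for Prm1 (SE 0.636, adjusted p = 0.654), -0.67 for Tnp2 (SE 0.366, adjusted p = 0.638), -0.62 for Tnp1 (SE 0.632, adjusted p = 0.803), -0.55 for Prm2 (SE 0.287, adjusted p = 0.614) and 0.19 for Prm3 (SE 0.591, adjusted p = 0.979). Without wild-type RS library 1 the difference was -1.21 for Prm1 (SE 0.319, adjusted p = 0.0932).

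Ratios between genes of 1 library do not depend on its total and are given as a description, without a test. The ratio of Prm1 to Tnp1, whose transcripts are of like length, was 2.76 and 2.66 in homozygous, 2.92 and 2.95 in heterozygous and 3.64 and 3.53 in wild-type RS libraries, on the TPM scale. The 3 genotypes did not overlap, and here wild-type library 1 lay beside library 2. The share of gene pairs whose ratios separate the genotypes was not counted, for this ratio or those below. In CB RNA this ratio was 1.38, 1.32 and 1.21 in homozygous and 2.04, 1.998 and 1.86 in heterozygous libraries. The ratio of Prm1 to Prm2 was 0.817 and 0.766 in homozygous, 0.790 and 0.935 in heterozygous and 2.29 and 0.838 in wild-type RS libraries, so that heterozygous values overlapped both other genotypes while both homozygous values lay below both wild-type ones. In CB RNA it was 0.401, 0.388 and 0.406 in homozygous and 0.732, 0.568 and 0.559 in heterozygous libraries, without overlap. In TPM, Prm1 exceeded Tnp2 in every heterozygous CB library (ratios 1.47, 1.35 and 1.405) and was below it in every homozygous one (ratios 0.8025, 0.697 and 0.7525). In CPM, both had 174.7 in heterozygous library 2. Prm1 there exceeded Tnp2 in libraries 1 and 3 (314 against 285 and 153 against 148 CPM), and it was again below Tnp2 in every homozygous library. The ratio of Tnp2 to Prm2 in RS RNA was 1.355 and 1.398 in homozygous, 1.079 and 1.055 in heterozygous and 1.37 and 1.26 in wild-type libraries, so heterozygous cells were the lowest. In CB RNA Tnp2 was below Prm2 in all 6 libraries, with ratios of 0.4994, 0.557 and 0.539 in homozygous and 0.497, 0.421 and 0.398 in heterozygous ones.

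**Figure D4:**
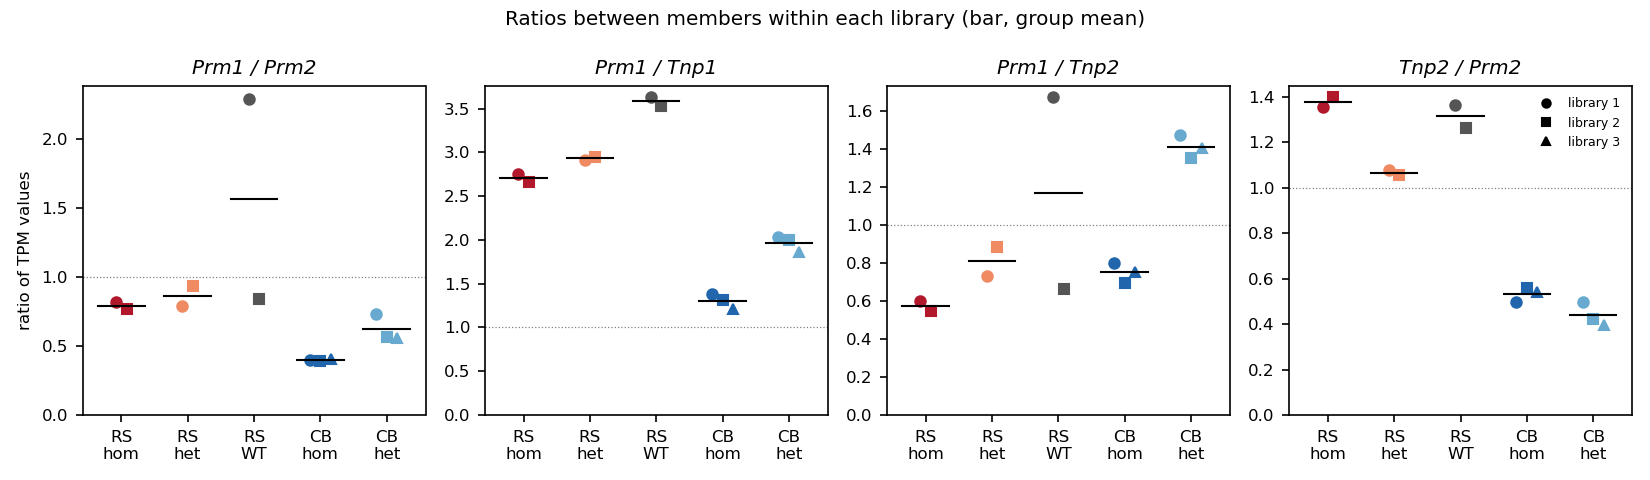
Ratio of TPM values between pairs of the genes in every library, by group (hom, homozygous; het, heterozygous; WT, wild type), with a bar at the group mean and a dotted line at 1. Prm1 over Tnp1 lies at 2.66 to 2.76 in homozygous, 2.92 to 2.95 in heterozygous and 3.53 to 3.64 in wild-type RS libraries, and Prm1 over Tnp2 lies below 1 in homozygous and above 1 in heterozygous CB libraries.

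Nearly all counts went to 1 transcript of each gene. All Prm1 counts were assigned to ENSMUST00000023144, and the second transcript, ENSMUST00000230568, was listed at 0 in every library. Of the Prm2 isoform percentage, ENSMUST00000189593 took 0.16% to 0.20% in RS and 0.29% to 0.75% in CB libraries, which rests on 28.6 to 169 estimated counts. Prm3, Tnp1 and Tnp2 had 1 transcript each. Neighbouring genes within 50 kilobases gave no call. Clec16a, beside the chromosome 16 cluster, averaged 161 CPM in homozygous and 134 CPM in heterozygous CB libraries (log2 change 0.27, adjusted p = 0.398), and Socs1, a cytokine signalling inhibitor, averaged 5.16 CPM in homozygous and 6.09 CPM in heterozygous ones (log2 change -0.24, adjusted p = 0.647). The noncoding gene 1700027A15Rik starts on the opposite strand 136 bases from Tnp1. It had 28.0 and 29.9 CPM in homozygous, 31.9 and 40.9 CPM in heterozygous and 184 and 23.7 CPM in wild-type RS libraries, the same high library as Tnp1. In CB RNA it had 8.19, 7.06 and 4.74 CPM in homozygous and 23.2, 10.9 and 9.46 CPM in heterozygous libraries (log2 change -1.12, adjusted p = 0.136).

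Among the genes most like the 5 in their pattern over all 12 libraries, out of 6549 with a mean of at least 10 CPM, were Tsacc (Pearson r = 0.987), Rpl32 (r = 0.982), Fabp9 (r = 0.976) and Rps24 (r = 0.975). The r is that of a gene's log2(CPM + 1) with the mean of the 5, both centred on the mean of their kind of library. The difference between RS and CB libraries thus does not enter it, but the points share wild-type library 1. Their transcripts are short, 518 to 585 bases. All 4 had their highest RS value in wild-type library 1, for example 205 CPM of Tsacc against 64.6 to 81.3 CPM in the other RS libraries. In CB RNA Tsacc lay at 9.22 to 11.5 CPM in homozygous and 11.98 to 20.4 CPM in heterozygous libraries. Fabp9, a fatty acid binding protein of germ cells, lay at 112 to 118 CPM in homozygous and 137 to 161 CPM in heterozygous ones.

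Genes that control transcription in haploid cells gave no call among the 10 tested in any of the 5 comparisons, with an unadjusted p under 0.05 for 2 genes in RS homozygous against wild type, 2 in RS homozygous against heterozygous, 2 in the difference of effects and none in the other comparisons, and no call by DESeq2. In homozygous against heterozygous RS cells the lowest p-values belonged to Camk4, a kinase that phosphorylates CREM (63.4 ± 1.35 CPM in homozygous and 50.5 ± 1.34 CPM in heterozygous libraries, SD, n = 2, log2 change 0.33, adjusted p = 0.247), and to Kdm3a, a histone demethylase known to be required for Prm1 and Tnp1 transcription (100.4 ± 3.94 CPM in homozygous and 138 ± 1.73 CPM in heterozygous libraries, SD, n = 2, log2 change -0.46, adjusted p = 0.277). Against wild type they belonged to Tbpl1, a TBP-like factor of spermatids (log2 change -0.36, adjusted p = 0.192), and Pygo2, a chromatin reader (log2 change -0.35, adjusted p = 0.205). In heterozygous against wild-type cells they belonged to Fhl5, the CREM coactivator also called ACT (log2 change -0.31, adjusted p = 0.519), and Brwd1 (log2 change 0.51, adjusted p = 0.519). In CB RNA Rfx2, a factor of spermiogenesis, had a log2 change of 0.20 (adjusted p = 0.518) and Fhl5 of -0.19 (adjusted p = 0.524). In the difference of effects Kdm3a had 0.54 (adjusted p = 0.480) and Brwd1 0.72 (adjusted p = 0.487). Without wild-type library 1, 1 of the 10 was higher and 5 lower in homozygous against wild-type cells, and 2 were higher and 4 lower against heterozygous ones, in fits that called 26.5% and 30.2% of all genes in either direction. Without heterozygous CB library 1, Rfx2 was higher (log2 change 0.31, adjusted p = 0.0216) and Taf7l lower (log2 change -0.61, adjusted p = 0.00899), in a fit that called 7.08% of all genes higher and 3.95% lower.

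Genes of mRNA storage and translation control also gave no call among the 13 tested in any comparison, by edgeR or DESeq2, with an unadjusted p under 0.05 for 4 genes in RS homozygous against wild type, 1 in each other RS comparison and none in CB or in the difference of effects. Eif4e1b, the remaining gene of this list, was not tested for low counts. Ybx3, a Y-box protein related to the RNA-binding protein YBX2, had 1934 and 2038 CPM in homozygous, 2272 and 2222 CPM in heterozygous and 2667 and 2584 CPM in wild-type RS libraries. Its homozygous libraries were the lowest and its wild-type ones the highest, an order whose share over all genes was not counted. The log2 change was -0.40 against wild type (SE 0.0827, adjusted p = 0.0615) and -0.18 against heterozygous cells (adjusted p = 0.349). Tarbp2, an RNA-binding protein known to be needed for protamine translation, averaged 231 ± 1.83 CPM in homozygous and 192 ± 0.575 CPM in heterozygous RS libraries (SD, n = 2, log2 change 0.27, adjusted p = 0.263). Ptbp2, a splicing regulator, had a log2 change of -0.54 against wild type (adjusted p = 0.140). In heterozygous against wild-type cells Ybx3 had -0.22 and Ddx25, an RNA helicase of spermatids, -0.26 (both adjusted p = 0.519). In the difference of effects Khdrbs1 had 0.42 (adjusted p = 0.634) and Boll 0.24 (adjusted p = 0.773). In CB RNA Tarbp2 had a log2 change of 0.19 (adjusted p = 0.553) and Boll of -0.13 (adjusted p = 0.704). Without wild-type library 1, 9 of the 13 were called lower in homozygous against wild-type RS cells, beside 13.1% of all genes. Against heterozygous cells 2 were higher and 5 lower, beside 15.5% and 14.6% of all genes. Without heterozygous CB library 1, Ybx3 and Pabpc2 were higher in homozygous CB samples (log2 change 0.23 and 0.26, adjusted p = 0.0420 and 0.0224), beside 7.08% of all genes called higher.

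Histone variants and factors of histone replacement had 1 call, in CB RNA. Tssk6, a testis-specific kinase known to be required for the exchange of histones, fell there by 0.73 (log2, SE 0.0976, adjusted p = 0.00667) and was the 1 of 19 genes tested that passed, beside 0.559% of all genes called lower. It had 66.0, 65.2 and 70.1 CPM in homozygous and 111, 118 and 104 CPM in heterozygous CB libraries, and heterozygous library 1 did not stand apart. Its call was lost without homozygous CB library 1 (adjusted p = 0.0788) and without library 2 (adjusted p = 0.0654). None of the 18 genes tested in RS cells passed, with 1 gene at an unadjusted p under 0.05 in homozygous against wild type, 1 in homozygous against heterozygous and 2 in heterozygous against wild type, and none of the 20 passed in the difference of effects. DESeq2 called 1 gene in homozygous against heterozygous RS cells and 1 in the difference of effects, where it called 796 of 17810 and 144 of 22002 genes. H2al2a, a histone variant known to be expressed with the transition proteins and to be needed for their loading, had 197 and 190 CPM in homozygous, 118 and 126 CPM in heterozygous and 239 and 128 CPM in wild-type RS libraries. Like Tnp2 it was higher in both homozygous than in both heterozygous libraries (log2 change 0.67, SE 0.277, adjusted p = 0.301), and without wild-type library 1 it rose by 0.67 (adjusted p = 4.4e-08). H2al2a belongs to a family of near-identical copies, among which reads can be split. Epc2, a subunit of the NuA4 acetyltransferase complex, averaged 13.0 ± 1.36 CPM in homozygous and 34.6 ± 2.97 CPM in heterozygous RS libraries (SD, n = 2, log2 change -1.42, SE 0.289, adjusted p = 0.0770). Against wild type, homozygous RS cells had a log2 change of -0.57 for Tssk6 (adjusted p = 0.127) and -0.45 for H3f3b, a gene of the replacement histone H3.3 (adjusted p = 0.260). Heterozygous RS cells had 0.86 for Epc2 and -1.18 for H2afb1 (both adjusted p = 0.519). The difference of effects was 1.26 for Epc2 (adjusted p = 0.152) and -0.50 for Tssk6 (adjusted p = 0.527). Without wild-type library 1, 1 of the 18 was higher and 4 lower in homozygous against wild-type cells, and 4 were higher and 5 lower against heterozygous ones, in fits that called 26.5% and 30.2% of all genes in either direction. Without heterozygous CB library 1, 3 of the 19 were higher and 5 lower in CB RNA, where 7.08% of all genes were called higher and 3.95% lower.

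Other late spermatid transcripts, fixed as a list of 12 genes of the tail, sheath and metabolism of condensing spermatids, had 4 calls in CB RNA, all lower in homozygous samples, where 0.559% of all genes were called lower. The list holds all 6 condensing spermatid markers, so its calls and the sums of those markers are not separate results. Odf1, an outer dense fibre protein of the tail, fell by 0.83 (log2, SE 0.159, adjusted p = 0.0298). Oaz3, the spermatid antizyme, fell by 0.84 (SE 0.168, adjusted p = 0.0344), Spata18 by 0.58 (SE 0.100, adjusted p = 0.0187) and Gapdhs, the sperm glycolytic enzyme, by 0.49 (SE 0.105, adjusted p = 0.0481). The median log2 change of the 12 was -0.54, against -0.0048 over all genes. DESeq2 called 6 of them, where it called 596 of 19335 genes in either direction. In edgeR 9 had an unadjusted p under 0.05, where 2813 of all genes had. Odf1 had 231, 232 and 246 CPM in homozygous and 309, 489 and 463 CPM in heterozygous CB libraries. Heterozygous library 1 was thus the lowest of its group for Odf1 and the highest for Prm1. Oaz3 went the same way as Odf1, with 107, 102 and 107 CPM in homozygous and 134, 220 and 213 CPM in heterozygous libraries. Without heterozygous library 1, 6 of the 12 were called lower, Odf1 by 1.02 and Oaz3 by 1.05 on the log2 scale (adjusted p = 1.1e-05 for both), beside 3.95% of all genes called lower. The 4 calls were lost when any other CB library was left out, with an adjusted p of 0.0559 to 0.285. None of the 12 passed in RS cells, where 5 genes had an unadjusted p under 0.05 in homozygous against wild type, 2 in homozygous against heterozygous and 0 in heterozygous against wild type, and none in the difference of effects, where 1 had; DESeq2 called none there. Odf1 had 1331 and 1359 CPM in homozygous, 1844 and 1797 CPM in heterozygous and 1795 and 1763 CPM in wild-type RS libraries, with both homozygous libraries below the other 4 (log2 change -0.44 against heterozygous, SE 0.0826, adjusted p = 0.0642, and -0.40 against wild type, adjusted p = 0.0613). In heterozygous against wild-type RS cells Ldhc had a log2 change of -0.28 and Tsks of -0.24 (both adjusted p = 0.519), and the difference of effects was -0.66 for Oaz3 (adjusted p = 0.505) and -0.64 for Spata19 (adjusted p = 0.644). Smcp, a protein of the mitochondrial sheath, had 1504 and 1541 CPM in homozygous, 2075 and 1988 CPM in heterozygous and 1881 and 2108 CPM in wild-type RS libraries. As for Odf1, both homozygous libraries lay below the other 4, an order whose share over all genes was not counted. Without wild-type library 1, 7 of the 12 were called lower in homozygous RS cells against wild type and 5 against heterozygous cells, beside 13.1% and 14.6% of all genes.

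**Figure D5:**
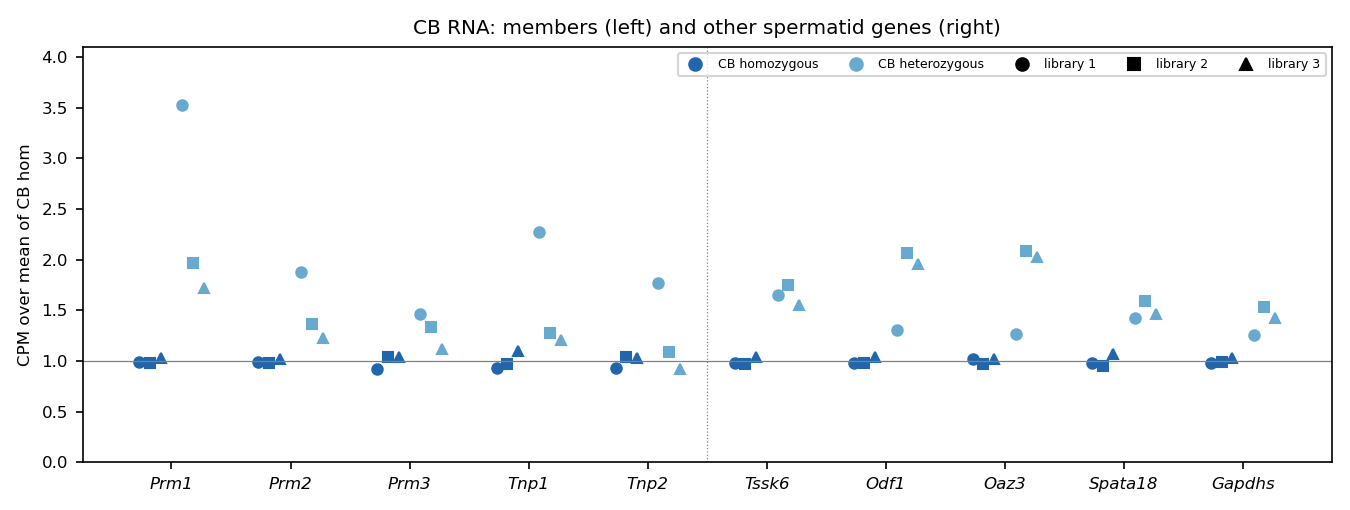
CPM in each CB library divided by the mean of the 3 homozygous libraries, for the 5 genes (left of the dotted line) and for the histone replacement kinase Tssk6 and 4 late spermatid genes (right). Heterozygous library 1 (pale circles) is the highest of its group for Prm1, at 3.53, and the lowest for Odf1, at 1.31, and Oaz3, at 1.27.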

How the data were processed

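For each RNA library the authors deposited a gene table and an isoform table with expected counts, TPM, FPKM and, for isoforms, the percent of the gene, per the file headers. FPKM values deposited by the authors enter no result. The columns are laid out as in RSEM output, but the sources used here name no aligner and no quantifier. Per the submitters' processing notes, Trim Galore and mm10 were used. The expected counts the authors deposited were rounded to whole numbers and tested in R 4.3.3 by edgeR 4.0.16 (quasi-likelihood test, TMM scaling, low counts removed with filterByExpr), adjusting by Benjamini-Hochberg over all genes tested at a threshold of 0.05. RS libraries were fitted together, CB libraries together, and all 12 for the difference of the genotype effects. Adjusted p-values are edgeR's unless DESeq2 (1.42.0) is named. The code was tested on simulated data. The 5 genes and the 4 gene lists were chosen with earlier results of these data known. From each list, up to 4 called genes of smallest p are named, or the 2 of smallest p where none was called. Other genes of the lists (Taf7l, Pabpc2 and those named for a fit without a library) were chosen after their values were seen.

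Mean fragment length was read from the deposited lengths and effective lengths of transcripts of at least 2000 bases. Totals of 15.3 to 24.9 M counts in RS and 14.2 to 16.5 M in CB libraries limit counting error, and the SE values cover the spread between libraries as well. No 2 libraries of a group matched within counting noise (chi-square per degree of freedom of at least 2.47). Deposited TPM values of short transcripts depend on the fragment length through the effective length, and CPM values carry no length correction. Positions and promoters are those of RefSeq on GRCm38.p6, and all 5 genes matched by symbol. Small RNA libraries were not used here. One of the genes with a similar pattern is not reported here.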

Additional observations from a re-analysis of the deposited data

How the results depend on the processing

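With 1 library left out at a time, the number of the 5 genes called ranged from 0 to 5 in RS homozygous against wild type, 0 to 2 in homozygous against heterozygous, 0 to 5 in heterozygous against wild type and 0 to 3 in CB. Genes called over all genes then ranged from 0 to 8490, 0 to 5602, 0 to 7907 and 51 to 2211 in these comparisons, and from 2 to 189 in the difference of effects. Log2 changes that turned sign ranged, in homozygous against wild type, from -0.58 to 0.0371 (Prm2), -2.00 to 0.32 (Tnp1) and -0.64 to 0.16 (Tnp2). In homozygous against heterozygous they ranged from -0.24 to 0.0494 (Prm1) and -0.13 to 0.16 (Tnp1). In heterozygous against wild type they ranged from -2.23 to 0.0462 (Prm1), -0.61 to 0.00907 (Prm2), -2.12 to 0.0664 (Prm3) and -2.01 to 0.31 (Tnp1). In homozygous against wild type (510 genes called), DESeq2 called 1287 genes and 1 of the 5, no filter 1707 and 3, length trend removed 2501 and 1, and only the compared libraries 13 genes. In homozygous against heterozygous (308 genes), the counts were 796 with DESeq2, 920 with no filter, 1760 and 1 of the 5 with length trend removed, and 5576 and 2 with only the compared libraries. Heterozygous against wild type gave 5 genes with DESeq2 and 6 with no filter. In CB (332 genes), DESeq2 called 596 genes and 3 of the 5, and no filter 881 and 3. The difference of effects (46 genes) gave 144 with DESeq2, 191 with no filter including 1 of the 5 (Prm1, adjusted p = 0.00484), 93 with length trend removed and 269 with only the compared libraries, the last chosen after seeing the data. The labels do not say that replicate numbers pair the samples, and deviations of same-numbered libraries had correlations from -0.184 to 0.115. These cannot exclude a pairing, since the deviations of 2 libraries in an RS group mirror each other. A replicate block gave 182, 12, 163 and 2 genes in homozygous against wild type, homozygous against heterozygous, CB and the difference of effects, and with length trend removed 2076, 1338 and 151 in the first 3. Signs turned for Prm2 with the length trend removed, without and with the block, to 0.0962 and 0.0989 against wild type, -0.0137 and -0.0150 against heterozygous, and 0.110 and 0.114 in heterozygous against wild type. Tnp2 turned to 0.241 and 0.244 against wild type, and Tnp1 against heterozygous to -0.00231 with DESeq2, -0.00223 with RLE factors and -0.0296 with the block. The cause of these shifts was not tested. Apart from the left-out libraries, 206 other values were counted as the same in direction and side of the threshold, 11 as reversed, 13 as stronger and 10 as weaker. Prm3 rests on 145 to 932 counts per library, the fewest of the 5.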
